A study of Mus musculus with 4 samples.

Results

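The constitutive proteasome subunits were examined in alveolar macrophages, which live in the airspaces of the lung and clear debris and surfactant there. The cells came from wild-type (WT) animals and from animals without the transcription repressor Bach2 (Bach2KO). They were taken as the genes whose symbols begin with Psma, Psmb, Psmc or Psmd and a number, without the interferon-inducible Psmb8, Psmb9 and Psmb10, which gave 37 of the 19747 genes named on the array. Sorted cells were pooled into 1 RNA sample per genotype, from 8 WT mice and from 4 mutants by the treatment protocol or 3 by the series design text. Each RNA sample was divided in 2 before amplification and Cy3 labelling and hybridised to 2 Agilent arrays. The strain, sex and age of the mice, the design of the Bach2 allele and the sorting gate are not stated in the material at hand. Because the 2 arrays of a genotype carry the same RNA, differences between genotypes carry no p-value and no check on separate animals.

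The proteasome degrades proteins tagged with ubiquitin. Its barrel-shaped core particle has outer rings of alpha subunits (Psma genes), which gate the entrance, and inner rings of beta subunits (Psmb genes), of which Psmb5, Psmb6 and Psmb7 carry the proteolytic sites. The regulatory particle caps the core. Its base holds a ring of ATPases (Psmc genes) that unfolds substrates, together with scaffold and ubiquitin-binding subunits, and its lid includes the enzyme that removes ubiquitin (Psmd genes). In immune cells the catalytic subunits can be replaced by Psmb8, Psmb9 and Psmb10, which form the immunoproteasome and alter the peptides available to MHC class I. Transcription of proteasome genes is raised by Nfe2l1, a factor of the CNC leucine zipper family to which Bach2 belongs, through antioxidant response elements.

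Of the 37 genes, 14 encode subunits of the core particle and 17 subunits of the regulatory particle. Another 3 (Psmd5, Psmd9 and Psmd10) encode chaperones of base assembly, and 2 encode tissue-restricted subunits of testis (Psma8) and thymus (Psmb11). The remaining symbol, Psmc3ip, belongs to a meiotic recombination factor that is no subunit and met the naming pattern alone. A gene counted as measured if its probe was clear of background on each array of either genotype, which held for 36 of the 37 genes, all of them in both genotypes. The thymus-specific Psmb11 was not well above background on any array. Values are log2 processed signal relative to the 75th percentile of the array (relative signal), from the brightest probe of each gene, and differences are Bach2KO minus WT. Signals of different genes come from different probes and are not set against each other.

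The promoter sequences of the genes with the 3 largest differences, Psmd8, Psmb6 and Psmb5, are shown because the data set these subunits apart in size from the others. Each is the stretch of 250 bases before the RefSeq transcript start (build GRCm38.p6), written 5′ to 3′ on the gene's strand, with matches to the antioxidant response core TGACNNNGC on either strand in capitals.
Psmd8 promoter, chr7:29180674-29180923, minus strand: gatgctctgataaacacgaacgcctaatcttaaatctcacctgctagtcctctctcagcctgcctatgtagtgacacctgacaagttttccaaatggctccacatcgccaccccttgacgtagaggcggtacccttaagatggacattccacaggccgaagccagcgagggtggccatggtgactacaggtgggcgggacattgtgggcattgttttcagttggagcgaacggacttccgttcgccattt
Psmb6 promoter, chr11:70525107-70525356, plus strand: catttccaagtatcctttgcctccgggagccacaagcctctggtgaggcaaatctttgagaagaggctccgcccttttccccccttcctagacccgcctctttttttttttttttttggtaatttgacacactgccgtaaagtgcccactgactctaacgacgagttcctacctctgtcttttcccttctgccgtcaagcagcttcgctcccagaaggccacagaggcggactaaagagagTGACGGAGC
Psmb5 promoter, chr14:54617996-54618245, minus strand: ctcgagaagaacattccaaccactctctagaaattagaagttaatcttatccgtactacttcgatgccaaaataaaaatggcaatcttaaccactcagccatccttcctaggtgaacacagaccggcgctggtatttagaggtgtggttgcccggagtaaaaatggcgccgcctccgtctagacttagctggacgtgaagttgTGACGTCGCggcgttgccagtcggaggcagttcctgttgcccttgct
Psmb6 and Psmb5 each held 1 match, which began 9 and 47 bases before the start, and Psmd8 held none. Promoter windows were found for 25 of the 31 core and regulatory subunits, 27 windows in all. The core motif was present in 4 of them (14.8%), those of Psmb5, Psmb6, Psmc6 and Psmd12, and in 10.2% of the 32851 mouse promoter windows of the same length. The CCAAT box, searched as CCAAT on both strands, was in 10 of the 27 (37.0%), none of them Psmd8, Psmb6 or Psmb5, and in 33.8% of all windows. The Maf recognition core, the site bound by Bach2 with small Maf proteins, was in 0 of the 27 and in 0.134% of all windows. The cyclic AMP response element TGACGTCA was in 0 and 1.55%.

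Most proteasome subunit transcripts were at similar relative signals in the WT and Bach2KO RNA. In 28 of the 31 core and regulatory subunits (90.3%) the 4 pairings of a Bach2KO array with a WT array all differed by less than 1.5-fold, against 55.1% of the 15120 genes measured, with arrays scaled to their 75th percentile. The other 3, Psmd8, Psmb6 and Psmb5, were higher in Bach2KO by at least 1.5-fold in all 4 array pairs, a criterion that 14.8% of all genes met in that direction. None was lower by as much, against 12.8% of all genes. The interquartile range of the difference was 0.31 over the subunits and 0.80 over all genes (log2). Directions are relative to that percentile. Scaling to spike-in RNA lowers every difference by 0.72, so that a positive difference under this size turns negative. In bulk RNA fewer cells of a type and less RNA per cell cannot be told apart.

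**Figure D1:**
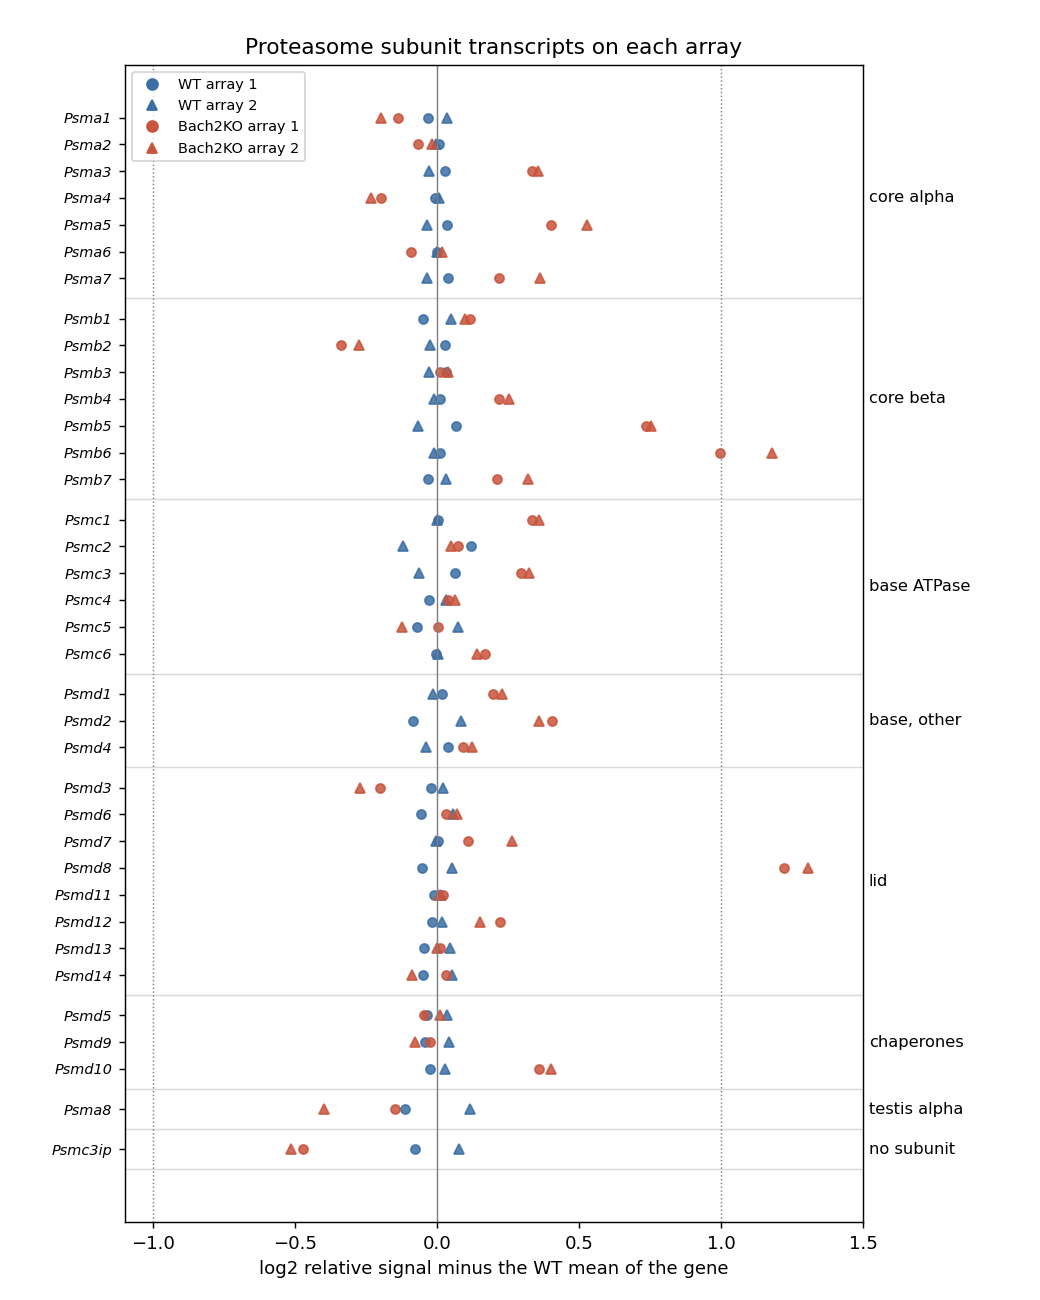
Relative signal of each measured gene on the 4 arrays, as log2 with the WT mean of the gene subtracted (horizontal axis), with genes grouped by their place in the proteasome (vertical axis). Circles and triangles are arrays 1 and 2 of each genotype, and dotted lines mark a 2-fold difference. Psmd8, Psmb6 and Psmb5 lie farthest to the right, and the Bach2KO arrays of Psmd8 are 1.17 to 1.36 above its WT arrays.

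Psmd8, a lid subunit required for attaching the lid to the base, gave 2.94 and 3.05 in WT and 4.21 and 4.30 in Bach2KO as relative signal. The groups did not overlap, and the gap between them was far wider than the gap between arrays of the same RNA. The SD between arrays was 0.08 in WT and 0.06 in Bach2KO. The signal rose 2.40-fold, and array pairs differed by 1.17 to 1.36 (log2). Psmd8 was the only one of the 36 measured genes to differ at least 2-fold in all 4 array pairs in the higher direction, which 8.37% of all genes did, and none did so in the lower direction, against 5.9% of all genes. A difference as high as that of Psmd8 or higher was found for 7.65% of all genes. With arrays scaled to spike-in RNA the difference was 0.55 and the 2-fold call was lost.

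Psmb6, which encodes the beta subunit with caspase-like activity, gave 5.09 and 5.06 in WT and 6.07 and 6.25 in Bach2KO. Both Bach2KO arrays were above both WT arrays, and Bach2KO array 1 was the lower of the 2. The ratio of the means was 2.12-fold, and the lowest array pair, at 0.98, missed the 2-fold criterion by a small margin. With spike-in scaling the difference was 0.37 (lowest pair 0.30). That criterion was met when the 75th percentile was taken over probes in place of spots (lowest pair 1.02). It was also met without WT array 1 (1.01) or Bach2KO array 1 (1.17). The 2-fold criterion was missed by more with scaling to the array median (lowest pair 0.90) and with quantile normalization (0.81). The same held with normexp background correction and quantile normalization (0.85).

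Psmb5, which encodes the subunit with chymotrypsin-like activity, the main target of clinical proteasome inhibitors, had relative signals of 5.88 and 5.75 in WT and of 6.55 and 6.57 in Bach2KO. The groups did not overlap, and Bach2KO was 1.67-fold higher (pairs 0.67 to 0.82), but with spike-in scaling the difference was 0.02 and the lowest pair -0.04. Quantile normalization gave a difference of 0.52 and a lowest pair of 0.48, short of 1.5-fold. Normexp background correction with quantile normalization also fell short (lowest pair 0.48). Scaling to the array median (0.60) and normexp with the 75th percentile (0.63) did not. A second, dimmer Psmb5 probe gave a difference of 0.84 (pairs 0.75 to 0.92). The third catalytic gene, Psmb7, which encodes the subunit with trypsin-like activity, had relative signals of 2.20 and 2.26 in WT and of 2.44 and 2.55 in Bach2KO. Its arrays did not overlap either, but the difference of 0.27 was the smallest of the 3. RefSeq lists 6 pseudogenes of Psma5, Psmb5, Psmb6 and Psmb7, none with a probe of its own here, and whether the probes of these 4 genes also bind such copies was not tested.

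The constitutive catalytic subunits were set against the inducible subunits that replace them at the same ring position, as a ratio within each array. Scaling an array by a constant leaves this ratio as it is, but quantile normalization can change it. Psmb8, which takes the place of Psmb5, had relative signals of 3.20 and 3.29 in WT and of 3.16 and 3.21 in Bach2KO, and the groups overlapped. Psmb9, the counterpart of Psmb6, had 2.76 and 2.79 in WT and 2.84 and 2.83 in Bach2KO, a difference of 0.06. Psmb10, the counterpart of Psmb7, had 5.34 and 5.30 in WT and 5.18 and 5.08 in Bach2KO, with both Bach2KO arrays lower. None of the 3 inducible genes differed by 1.5-fold. Of all genes 14.8% were at least 1.5-fold higher in all array pairs and 12.8% lower.

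The log2 ratio of Psmb6 to Psmb9 was 1.02 higher in Bach2KO (array pairs 0.90 to 1.15), a 2.03-fold shift. The ratio of Psmb5 to Psmb8 was 0.81 higher (pairs 0.68 to 0.93), and that of Psmb7 to Psmb10 was 0.46 higher (pairs 0.30 to 0.61). All 3 ratios were therefore higher in both Bach2KO arrays than in both WT arrays. Taken over the means of the 3 genes on each side, the shift was 0.76 (pairs 0.67 to 0.86). Against the other core subunits the mean of the catalytic genes shifted by 0.64 (pairs 0.60 to 0.67). These ratios show unequal change between the genes and not which of them changed. With quantile normalization the differences were 0.91 for Psmb6 and 0.05 for Psmb9, and 0.52 for Psmb5 and -0.11 for Psmb8. Those of Psmb7 and Psmb10 were then 0.27 and -0.35.

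**Figure D2:**
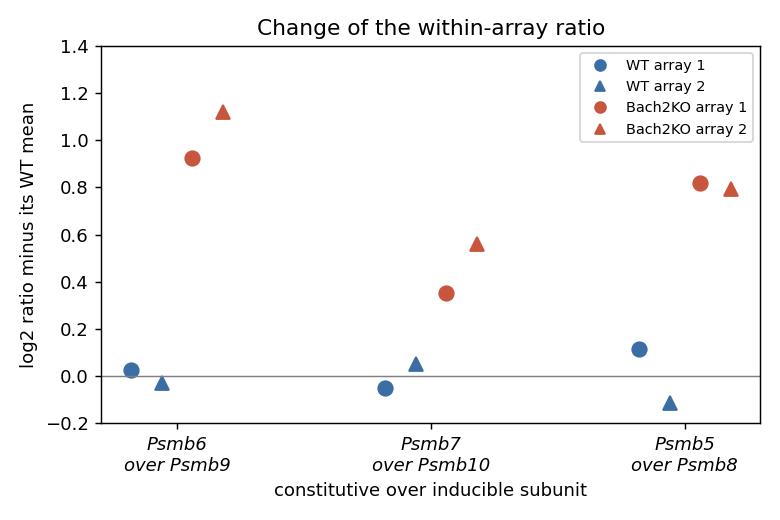
Log2 ratio of each constitutive catalytic subunit to its inducible counterpart within an array, with the WT mean of the ratio subtracted (vertical axis), for the 3 ring positions (horizontal axis). Each point is 1 array, and the Bach2KO arrays are above the WT arrays in all 3 ratios, by 1.02 for Psmb6 over Psmb9, 0.46 for Psmb7 over Psmb10 and 0.81 for Psmb5 over Psmb8.

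The core particle as a whole had a median difference of 0.17 over its 14 subunits (0.12 to 0.19 over array pairs), beside 0.06 over all genes. The alpha rings and the beta rings differed in their medians. The 7 alpha genes had a median of -0.04 (-0.76 with spike-in scaling), with both Bach2KO arrays above both WT arrays for 3 (Psma3, Psma5 and Psma7), below for 3 (Psma1, Psma2 and Psma4) and overlapping for Psma6. Over all genes the corresponding shares were 45.5% above and 39.5% below, and 2255 of 15120 overlapped. The 7 beta genes had a median of 0.24 (-0.48 with spike-in scaling), with 5 above, 1 below and 1 overlapping (Psmb3).

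Among the alpha genes Psma5 had the largest difference, with relative signals of 3.30 and 3.23 in WT and of 3.67 and 3.80 in Bach2KO, a 1.38-fold ratio of means. Psma3 and Psma7 differed by 0.34 and 0.29. At the other end Psma4 had 2.99 and 3.00 in WT and 2.80 and 2.77 in Bach2KO, and its dimmer probe gave -0.08 in place of -0.21. Psma1 had 4.20 and 4.26 in WT and 4.09 and 4.03 in Bach2KO. Gaps between arrays of the same RNA had a median of 0.07 in WT and 0.04 in Bach2KO over the 36 measured genes. They reached 0.24 (Psmc2) and 0.25 (Psma8, a dim gene). The differences of Psma4 and Psma1, and those of similar size in other genes, do not exceed these largest gaps, which came from other genes. Array pairs ran from -0.24 to -0.19 for Psma4 and from -0.23 to -0.10 for Psma1.

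Of the 4 beta genes without a proteolytic site, Psmb2 had the lowest difference of the core particle. Its relative signals were 0.99 and 0.93 in WT and 0.62 and 0.68 in Bach2KO, 1.24-fold lower with no overlap. Relative to the mean of the other core subunits on the same array, Psmb2 shifted by -0.54 (pairs -0.57 to -0.52). Psmb4 differed by 0.24, Psmb1 by 0.11 and Psmb3 by 0.02, and the median of the 4 was 0.06.

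The regulatory particle had a median difference of 0.11 over its 17 subunits (0.09 to 0.14 over array pairs). Both Bach2KO arrays were above both WT arrays for 10, below for 1 and overlapping for 6. Over all genes 45.5% were above and 39.5% below, and 2255 of 15120 overlapped. The core median exceeded the regulatory median by 0.07, and over array pairs this gap ran from -0.01 to 0.09, so that the order of the 2 particles was not the same in every pair. Without Psmd8, Psmb6 and Psmb5 the differences of the remaining 28 subunits lay between -0.31 and 0.46, with a median of 0.08.

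In the base, 4 of the 6 ATPase genes had both Bach2KO arrays above both WT arrays and none below, with a median of 0.11. The shares over all genes were 45.5% above and 39.5% below. Psmc1 had the largest difference, with relative signals of 4.40 and 4.39 in WT and of 4.73 and 4.75 in Bach2KO, and its dimmer probe gave 0.17 against 0.35 for the brighter. Psmc3 differed by 0.31, or by 0.08 with its dimmer probe, Psmc6 by 0.15 and Psmc4 by 0.05. Psmc5 had 2.91 and 3.05 in WT and 2.98 and 2.86 in Bach2KO, so that the genotypes overlapped. The probes of Psmc2 disagreed in sign, with 0.06 and overlapping arrays for the brighter and -0.16 for the dimmer.

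The 3 base genes that encode no ATPase all had both Bach2KO arrays above both WT arrays, as did 45.5% of all genes. Their median of 0.21 became -0.51 with spike-in scaling. Psmd2, which encodes a scaffold that docks ubiquitin shuttles, had relative signals of 3.61 and 3.78 in WT and of 4.10 and 4.06 in Bach2KO, 1.30-fold higher. The large scaffold gene Psmd1 differed by 0.21, and the ubiquitin receptor gene Psmd4 by 0.11.

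Psmd8 stood apart from the other lid genes. Relative to the mean of the other regulatory subunits it shifted by 1.16 (pairs 1.07 to 1.25). The 8 lid genes had a median of 0.03, and 4 of them (Psmd6, Psmd11, Psmd13 and Psmd14) overlapped between genotypes. Of the 15120 genes measured 2255 overlapped. Psmd14, the deubiquitinase of the lid, had relative signals of 1.81 and 1.91 in WT and of 1.89 and 1.77 in Bach2KO, a difference of -0.03. Psmd11, Psmd13 and Psmd6 differed by 0.01, 0.00 and 0.05, and Psmd7 and Psmd12 by 0.18 and 0.19. Psmd3 was the lowest, with 4.66 and 4.71 in WT and 4.48 and 4.41 in Bach2KO, 1.18-fold lower without overlap.

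**Figure D3:**
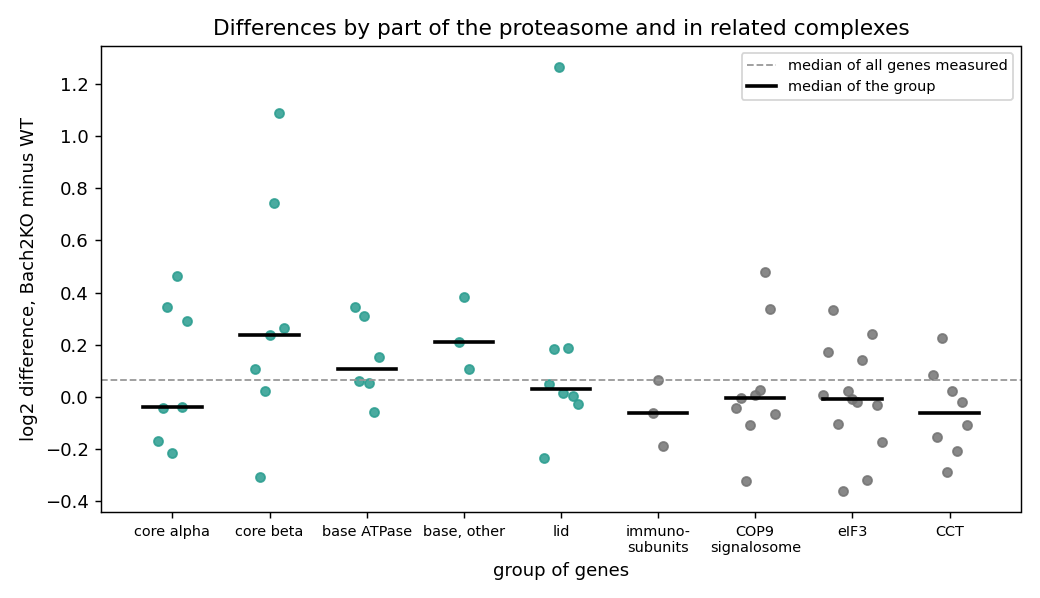
Log2 difference between Bach2KO and WT array means (vertical axis) for the genes of each part of the proteasome (green points) and of other complexes (grey points), with the group median as a black bar and the median of all genes measured (0.06) as a dashed line. Psmd8 in the lid (1.26) and Psmb6 and Psmb5 among the core beta genes (1.09 and 0.74) lie above the remaining points.

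Of the assembly chaperone genes Psmd10 (gankyrin) differed by 0.38, 1.30-fold higher without overlap, and by 0.32 with its dimmer probe. Psmd5 and Psmd9 differed little, by -0.02 and -0.05. The dimmer Psmd9 probe gave 0.38, so the direction for Psmd9 rests on the probe chosen. The testis subunit gene Psma8 was dim, with relative signals of -5.30 and -5.07 in WT and of -5.34 and -5.59 in Bach2KO. Psmc3ip differed by -0.49. Of the 8 genes with 2 probes, 6 gave the same sign with both, and Psmc2 and Psmd9 did not.

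**Figure D4:**
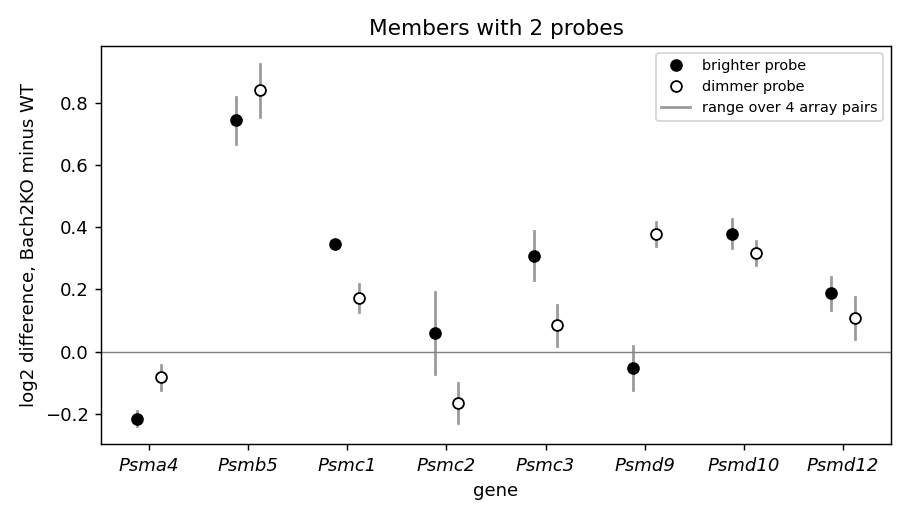
Log2 difference between Bach2KO and WT (vertical axis) for each probe of the 8 genes with 2 probes (horizontal axis). Filled and open circles are the brighter and the dimmer probe and lines span the 4 array pairs. Both Psmb5 probes lie above those of the other genes (0.74 and 0.84), and the probes of Psmc2 and Psmd9 fall on opposite sides of 0.

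Genes that act with the proteasome showed no 2-fold difference in either direction, against 8.37% of all genes higher and 5.9% lower. By the order of the arrays, 45.5% of all genes were above and 39.5% below, the shares beside which the following counts stand. Of 5 core assembly factor genes 2 had both Bach2KO arrays above both WT arrays and 1 below. Psmg4 differed by 0.54 and Psmg2 by -0.22. Among 5 genes of alternative caps and of a core inhibitor, 2 were above and 1 below, with 0.41 for the interferon-inducible activator gene Psme2 and 0.29 for the nuclear activator gene Psme3. Of 7 measured genes of other subunits and bound factors 2 were above and 3 below, the largest being Ecpas (-0.40), a proteasome adaptor gene, and Akirin2 (-0.21), whose product escorts proteasomes into the nucleus. All 4 ubiquitin genes were above (median 0.36, but -0.36 with spike-in scaling), with 0.41 for Rps27a, which encodes ubiquitin fused to a ribosomal protein.

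Shuttle receptor and Vcp complex genes divided, with 4 of 9 above and 5 below, beside 45.5% and 39.5% of all genes. Nploc4, which encodes a cofactor of the Vcp unfoldase, differed by 0.47. Among 9 measured regulators of proteasome genes 3 were above and 4 below. Ngly1, whose product deglycosylates Nfe2l1 during its activation, had relative signals of -2.33 and -2.14 in WT and of -3.00 and -2.92 in Bach2KO, 1.65-fold lower. The NF-Y subunit gene Nfyb differed by -0.46. Nfe2l1 itself, looked up after its value was seen, differed by 0.31.

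Complexes related to the proteasome in architecture were measured alongside. The COP9 signalosome and the translation initiation factor eIF3 share the folds of the lid, and the chaperonin CCT is a ring complex. Their medians were 0.00 (9 genes), -0.01 (13 genes) and -0.06 (8 genes), and no gene of these 3 complexes reached 1.5-fold in all array pairs. By that criterion 14.8% of all genes were higher and 12.8% lower. Their largest differences were 0.48 for Cops7a, -0.36 for Eif3e and -0.29 for Cct4. No test of the proteasome against these complexes was made, since there is 1 RNA sample per genotype.

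How the arrays were scaled decided the sign of the medians. With scaling to the 9 spike-in control probes of the array every difference was 0.72 lower. The core median was then -0.55 and the regulatory median -0.61, beside -0.66 over all genes, and 2 of the 36 genes (Psmd8 and Psmb6) were above and 33 below, against 11.9% and 80.4% of all genes. With the array median in place of the 75th percentile every difference was 0.10 lower, the medians were 0.07 and 0.00 beside -0.04 over all genes, and 13 genes were above and 10 below, against 38.3% and 44.7%. These 3 scalings shift all genes alike, and leave the within-array ratios above as they are. With normexp background correction and the 75th percentile the core median was 0.17 and the regulatory median 0.09, below the median of all genes at 0.12.

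**Figure D5:**
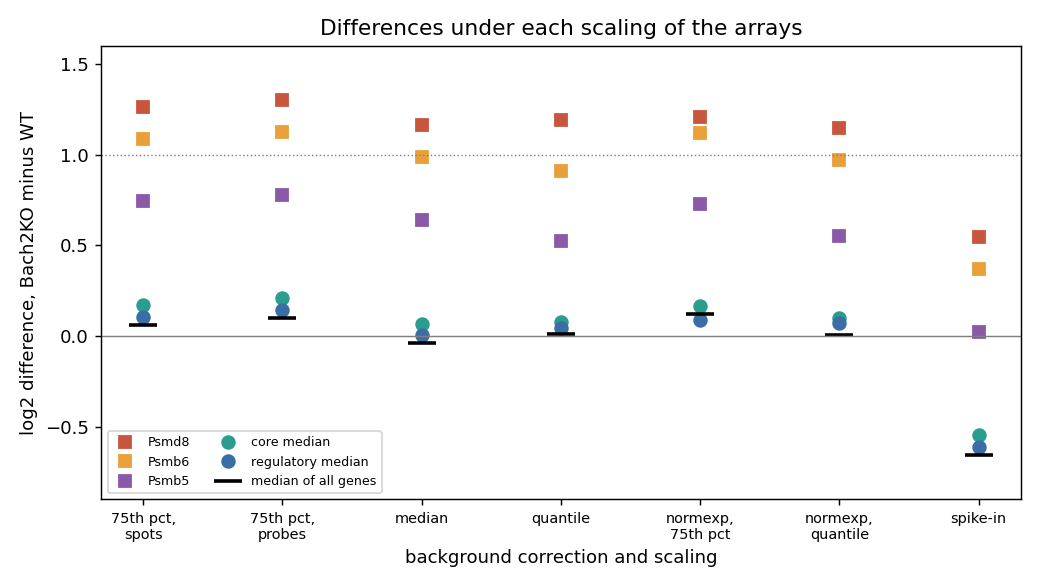
Log2 difference between Bach2KO and WT (vertical axis) of Psmd8, Psmb6 and Psmb5, of the core and regulatory medians and of the median of all genes under 7 combinations of background correction and scaling (horizontal axis). Dotted and solid lines mark a 2-fold difference and 0. Psmd8 runs from 0.55 with spike-in scaling to 1.30 with the 75th percentile over probes, and the core and regulatory medians run lowest with spike-in scaling (-0.55 and -0.61, beside -0.66 over all genes).

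Other measurements moved with genotype in the same RNA. Of 13 measured alveolar macrophage markers 4 were at least 2-fold lower in Bach2KO (Siglecf, Ear1, Marco and Ear2) and Fabp4 was higher, with summed relative signals of 1124 to 1273 times the array's 75th percentile in WT and of 943 to 952 in Bach2KO. Markers of monocytes and interstitial macrophages had 5 of 10 higher and 1 lower, with sums of 57.9 to 59.9 and of 65.8 to 66.5. Neutrophil markers had 2 of 7 higher (sums of 3.83 to 4.03 and of 23.1 to 25.1), and T cell markers 4 of 7 (6.74 to 7.51 and 13.3 to 13.6). Cd3d and Cd3g of the T cell receptor, Il7r and S100a9 of neutrophils were not well above background on either WT array. Il7r, which is counted in the T cell sum, differed by at least 8.49. The T cell markers Cd3e, Cd4 and Cd8a, which were not called, differed by 0.17, 0.30 and 0.45. Endothelial markers had 2 of 4 higher (14.1 to 15.1 and 29.6 to 29.8), epithelial markers 2 of 5 higher and 1 lower (3.76 to 3.85 and 4.64 to 4.67), B cell markers 1 of 4 higher (0.08 to 0.13 and 0.15 to 0.16) and eosinophil markers 0 of 3 (0.06 to 0.11 and 0.08 to 0.17), by the 2-fold criterion. Of all genes 8.37% were higher and 5.9% lower by that criterion. Of 12 cell cycle genes 10 had both Bach2KO arrays below both WT arrays, against 39.5% of all genes, with a median of -0.30. The part of these in the proteasome values was not tested. All 4 arrays lay on 1 slide with the genotypes in adjacent positions, and the effect of position cannot be told apart from that of genotype. Bach2 gave no check of the labels, since its probe was near background (-6.32 and -6.28 in WT, -5.16 and -8.13 in Bach2KO).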

How the data were processed

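RNA from sorted alveolar macrophages was hybridised to 4 1-colour Agilent mouse arrays. Spot intensity in the deposited scanner files is linear, background-subtracted and detrended within each array by Feature Extraction, whose version was 10.7.3.1 per the file headers and 9.1 per the submitters' processing notes. The array design was built on mm9. Deposited flags mark outlier and saturated spots (0 saturated) and probes well above background (27127 to 27918 of 39429). The authors' deposited table has log2 values. Compared with the scanner output, its columns equalled log2 processed signal less 1 constant per array for probes with 1 spot (SD of the gap over all probes 0.050 to 0.065), without centring of genes (medians -3.58, -3.67, -3.53 and -3.45), so scale, centring and direction were settled.

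Replicate spots were averaged as log2 values, leaving out outlier spots, and the array's 75th percentile over all non-control spots (1267 and 1513 in WT, 1036 and 979 in Bach2KO) was subtracted. Accessions named 26049 probes through a RefSeq table of GRCm38.p6, none with several symbols, and 13380 had none. A gene was called where all 4 array pairs differed at least 2-fold, with a lower bound also reaching 2-fold where a genotype was dim. No test was run, so limma 3.58.1 in R 4.3.3 served the normexp alternative alone (median signals, offset of 50), and other steps used Python 3.11.15. The calls were tested on simulated data. The members, gene lists and alternatives were chosen with earlier results of these data known. Genes given with array values were the catalytic and inducible subunits, the 3 largest and 3 smallest differences of each particle, genes past 1.5-fold and Psmd14. Psma8 and Bach2 were added after their values were seen. In other lists the 2 largest differences were named, as none was called, except for genes not reported here.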

Additional observations from a re-analysis of the deposited data

How the results depend on the processing

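No result has a replicate check, because the arrays of a genotype share 1 RNA sample, and arrays limit the precision to labelling and hybridisation spread. The count of genes at least 2-fold higher was 1. It was 2 (Psmd8 and Psmb6) with the 75th percentile over probes (chosen after seeing the data), normexp with the 75th percentile, the deposited value table and the rule on array means, 3 at 1.5-fold, 0 at 3-fold, 0 with spike-in scaling and 1 to 2 with 1 array left out. The count at least 2-fold lower was 0 under all 19 alternatives. Of the 36 genes 19 had both Bach2KO arrays above both WT arrays (2 with spike-in scaling, 20 to 22 without 1 array) and 7 below (33 with spike-in scaling, 8 to 12 without 1 array, highest without WT array 1). Over all genes 45.5% were above and 39.5% below. Leaving out an array leaves fewer pairs to meet, so each criterion becomes easier and these counts are bound to stay or rise.

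The core and regulatory medians of 0.17 and 0.11 were 0.069 and 0.0041 with median scaling, 0.21 and 0.14 with the percentile over probes and with the deposited table, 0.079 and 0.045 with quantile normalization, 0.10 and 0.071 with normexp and quantile normalization, and -0.55 and -0.61 with spike-in scaling. Without 1 array they ran from 0.15 to 0.19 and from 0.091 to 0.15. For single genes 437 of 741 values were altered by the alternative at all, and 305 of these moved by no more than the SD between arrays. With the replicate number as a block, which compares arrays of the same number only, 1 gene was higher, 20 were above and 8 below, and the medians stayed at 0.17 and 0.11. The block also leaves fewer pairs to meet. The labels do not say that the numbers pair the arrays. The slide could not serve as a block, since there was 1 slide.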
